A study of Rattus norvegicus with 6 samples.

Results

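Tiles of the rat genome whose DNA methylation separated downward in iron deficiency were selected from whole-genome bisulfite sequencing (WGBS) of the hippocampus. A tile was a stretch of 1000 nucleotides on chromosomes 1 to 20 with at least 5 CpGs covered in all 6 samples and at least 50 reads in each sample, where a read was counted at each CpG it covered. Its methylation was the number of methylated reads divided by all reads. A tile was a member when its highest iron-deficient value lay at least 10 percentage points below its lowest iron-sufficient value, and this distance is called the gap. Of 890616 tested tiles, 3471 (0.390%) were members. Because these values chose the members, the difference between the groups in the members is described below and not tested.

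The hippocampi came from Sprague-Dawley rat pups at postnatal day 15, with 3 pups in each group. Dams of the iron-deficient group were fed 4 ppm iron from gestational day 2 to postnatal day 7 and 200 ppm afterwards. The tissue was thus taken after these dams had changed to the sufficient diet. The study states, citing earlier work, that this feeding made the hippocampus iron-deficient at postnatal day 15. Dams of the iron-sufficient group received 200 ppm throughout. The tissue was whole hippocampus, so a difference in methylation within a cell type and a difference in the mix of cell types cannot be told apart. Litter and sex of the pups are not given in the sources used here. The samples listed 16699344 to 21093430 CpGs, with 432692526 to 780127386 reads summed over CpGs.

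DNA methylation is the addition of a methyl group to a cytosine, in mammals mostly where the cytosine is followed by a guanine (CpG). Most CpGs of the mammalian genome are methylated, while CpG-rich promoters and active enhancers are usually low. Methyltransferases place and maintain the mark, and its active removal starts with TET enzymes, which need iron as a cofactor.

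Of the members, 13 held a transcription start that could be placed in the coordinates of the files, and 4 of these starts belonged to named protein-coding genes. Their promoter sequences are shown because they belong to the members that could be tied to a named protein-coding gene. Each runs 5′ to 3′ on the strand of the gene, from 250 bases before the start to 50 after it, as RefSeq gives it for GRCr8. The tile named with each is the one that holds the start, and the Tmem150a promoter begins upstream of its tile. Capitals mark each CG, the dinucleotide whose methylation was measured. Vamp8 encodes a vesicle SNARE of endosomes and secretory granules, Tmem150a a plasma membrane protein that takes part in phosphoinositide synthesis, A4galt the galactosyltransferase that makes the glycolipid globotriaosylceramide, and Defb36 a beta-defensin.
Vamp8, minus strand, in the tile chr4:105697001-105698000 (rn4): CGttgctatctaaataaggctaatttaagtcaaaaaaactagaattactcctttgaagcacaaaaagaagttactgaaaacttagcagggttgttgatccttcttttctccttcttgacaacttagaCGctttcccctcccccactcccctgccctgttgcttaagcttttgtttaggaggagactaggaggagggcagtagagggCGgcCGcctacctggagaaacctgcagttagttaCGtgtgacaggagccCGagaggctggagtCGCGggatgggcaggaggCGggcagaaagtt
Tmem150a, plus strand, in the tile chr4:105661001-105662000 (rn4): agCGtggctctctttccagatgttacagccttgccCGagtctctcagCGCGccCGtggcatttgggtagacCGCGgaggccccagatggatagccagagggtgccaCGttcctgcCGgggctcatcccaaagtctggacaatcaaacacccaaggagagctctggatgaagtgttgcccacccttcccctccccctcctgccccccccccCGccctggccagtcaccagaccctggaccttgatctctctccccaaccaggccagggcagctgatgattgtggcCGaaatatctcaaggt
A4galt, minus strand, in the tile chr7:121255001-121256000 (rn4): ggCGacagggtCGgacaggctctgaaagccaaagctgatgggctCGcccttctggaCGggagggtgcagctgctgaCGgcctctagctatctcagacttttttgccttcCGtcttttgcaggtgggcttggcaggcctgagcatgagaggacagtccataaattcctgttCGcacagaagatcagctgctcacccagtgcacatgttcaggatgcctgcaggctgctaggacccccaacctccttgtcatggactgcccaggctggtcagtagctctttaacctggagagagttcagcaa
Defb36, plus strand, in the tile chr3:142946001-142947000 (rn4): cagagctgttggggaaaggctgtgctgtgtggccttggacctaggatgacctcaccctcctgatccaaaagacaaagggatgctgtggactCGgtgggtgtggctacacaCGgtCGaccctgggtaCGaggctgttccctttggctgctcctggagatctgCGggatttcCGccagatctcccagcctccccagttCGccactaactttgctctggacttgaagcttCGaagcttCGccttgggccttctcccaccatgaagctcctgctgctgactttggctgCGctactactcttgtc
The promoters held 9 CG in Vamp8, 11 in Tmem150a, 7 in A4galt and 10 in Defb36. Over all 33469 RefSeq promoters the median was 7, with quartiles of 3 and 19, and 94.5% held at least 1.

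The members were highly methylated in the iron-sufficient pups and intermediate in the iron-deficient pups. Median methylation of the members was 81.1%, 86.4% and 84.1% in iron-sufficient replicates 1 to 3. In iron-deficient replicates 1 to 3 it was 57.7%, 54.1% and 59.0%. Over all tested tiles the 6 medians lay between 79.5% and 81.3%. Each iron-sufficient median of the members was above that of all tested tiles in the same sample, which was 79.9%, 79.5% and 80.2%, and each iron-deficient median was below it. The tiles separated upward showed the mirror image. The difference between the group means had a median of −25.1 points, with quartiles of −30.4 and −20.8. The plot of methylation by sample shows the medians and quartiles of the 6 samples beside those of the 5178 tiles (0.581%) that met the same rule upward.

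**Figure D1:**
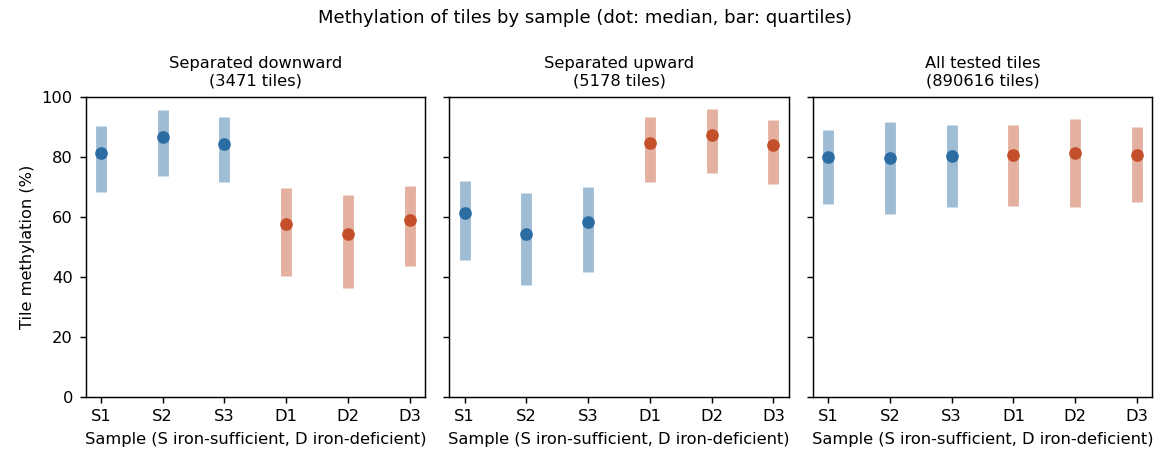
Methylation (%) of the tiles in each sample, for tiles separated downward, tiles separated upward and all tested tiles. Dots are medians over tiles and bars run between the quartiles. In the tiles separated downward, chosen by these values, the medians lie at 81.1% to 86.4% in the iron-sufficient samples and 54.1% to 59.0% in the iron-deficient samples, while all tested tiles lie near 80% in every sample.

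Most members lay close to the threshold. The gap had a median of 13 points with quartiles of 11.2 and 15.7, and 2433 members (70.1%) had a gap under 15 points. A gap of at least 20 points was present in 303 members (0.0340% of the tested tiles) and a gap of at least 30 points in 23 (0.00258%). The members just inside the threshold had gaps of 10, 10 and 10.002 points, and the tiles just outside it had 9.993, 9.992 and 9.991. The range among the replicates had a median of 9.73 points in the iron-sufficient group and 12.2 points in the iron-deficient group. In tiles separated upward the order was reversed, at 12.8 and 8.91 points. Over all tested tiles the medians were 15.9 and 15.1 points. All 3 iron-sufficient replicates lay within 10 points of each other in 1783 members (51.4%) and all 3 iron-deficient replicates in 1371 (39.5%), and both held in 723 (20.8%). The same shares over all tested tiles were not counted. The reads carry no molecular identifiers and were counted at each CpG they covered, so the read count of a tile is not a count of independent molecules.

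The samples contributed unequally to the borders of the gap. The highest iron-deficient value came from replicate 3 in 1396 members (40.2%), from replicate 1 in 1210 (34.9%) and from replicate 2 in 865 (24.9%). The lowest iron-sufficient value came from replicate 1 in 1766 members (50.9%), from replicate 3 in 1000 (28.8%) and from replicate 2 in 705 (20.3%). Over the tested tiles, CpGs with 20 to 60 reads were at exactly 0% or 100% in 39.8% of cases for iron-sufficient replicate 1 and 44.2% for iron-deficient replicate 3, against 54.3% to 72.5% in the other samples. The samples that most often bounded the gap were also those with the fewest CpGs at the extremes. The part of this difference between libraries in the membership was not tested. How often each sample was the highest or lowest of its group over all tested tiles is not given here.

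The count of members was compared with the counts under every assignment of 3 of the 6 samples to the lower group. The 20 assignments gave 3358 to 5240 tiles, with a median of 4163.5. The labels of the study gave 3471, the second lowest count, and 17 of the 18 mixed assignments gave more. A one-sided exact permutation test of the count gave p = 0.95, where the smallest possible p is 0.05. The number of tiles separated downward was therefore not larger than the number that arises when the diets are mixed. At a margin of 20 points the labels gave 303 tiles, the lowest of the 20 counts, which ran to 513 (p = 1, exact permutation test). At 30 points they gave 23 tiles in a range of 19 to 51 (p = 0.9, exact permutation test). Without any margin, the groups did not overlap downward in 36382 tiles (4.09%) and upward in 52860 (5.94%).

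**Figure D2:**
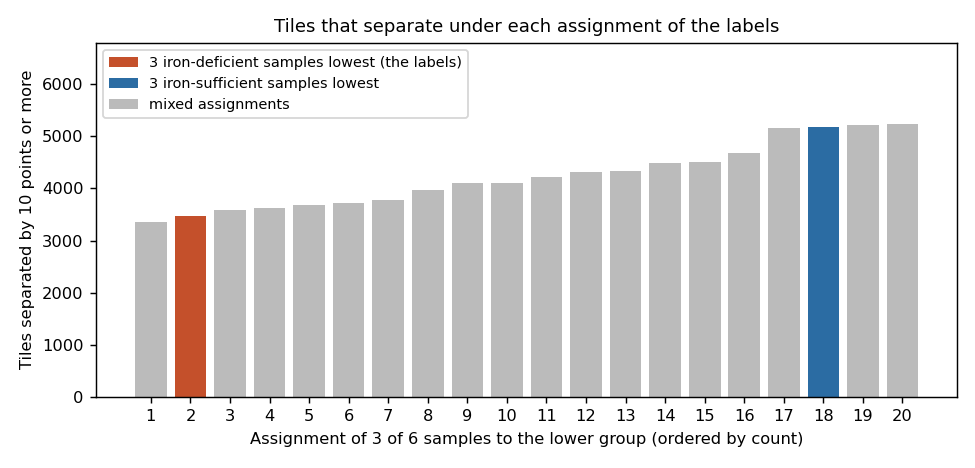
Number of tiles whose lower group of 3 samples lies at least 10 points below the other 3, for each of the 20 assignments of samples to the lower group, ordered by count. The iron-deficient samples as the lower group gave 3471 tiles, the iron-sufficient samples as the lower group gave 5178, and the 18 mixed assignments gave 3358 to 5240.

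Which tiles were members depended on how a tile was summarised. With the mean of the CpG fractions in place of the read-weighted value, 2755 tiles met the rule. Of these, 816 were members, which is 23.5% of the members and 29.6% of the other list. The groups still did not overlap in 64.6% of the members, but the median gap fell to 3.85 points. When each sample was summarised over all CpGs it listed, 1234 members (35.6%) met the rule and formed 48.9% of that list. With tile borders moved by 500 nucleotides, 3316 tiles met the rule, and 626 of these (18.9%) overlapped a member. They overlapped 625 members (18%). With CpGs of over 200 reads left out, 3442 members (99.2%) met the rule. With only the CpGs that had 5 or more reads in all samples, 1609 members could be tested again and 980 met the rule (28.2% of the members and 47.1% of that list). With 10 or more reads, 572 could be tested and 273 met it (7.87% and 28.8%). Of the members that could be tested again, 60.9% met the rule with 5 reads and 47.7% with 10. The groups still did not overlap in 88.6% and 82% of them.

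Members were shallower and poorer in CpGs than the tested tiles. They held a median of 7 CpGs against 8 in all tested tiles, and the shallowest sample had a median of 111 reads against 147. The share of members fell from 0.559% of the tiles with 5 to 7 CpGs to 0.103% of those with 20 to 39 and 0.00831% of those with 40 or more. By depth it fell from 0.617% of the tiles with 50 to 99 reads in the shallowest sample to 0.116% of those with 400 to under 800, and to 0.00534% of those with 800 or more. By level it was 0.0646% of the tiles with a mean methylation under 20%, 0.814% of those between 40% and 60%, and 0.181% of those at 80% or above. Tiles separated upward followed the same order of classes, as the plot of shares by class shows. The count of CpGs and the depth are part of the tile rule, so these shares are descriptions.

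**Figure D3:**
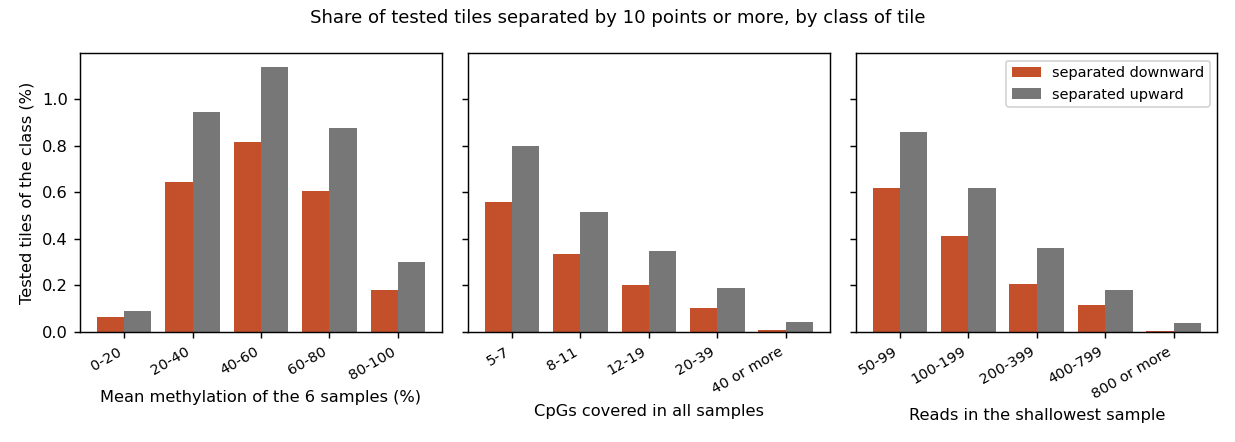
Share (%) of the tested tiles that separate by 10 points or more, by class of mean methylation over the 6 samples, number of CpGs and reads in the shallowest sample. Red bars are tiles separated downward and grey bars tiles separated upward. Both shares fall with CpGs and with reads, and downward separation is most frequent, at 0.814%, in tiles with 40% to 60% methylation.

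Members were found on all 20 autosomes, from 0.327% of the tested tiles of chromosome 13 to 0.462% of those of chromosome 18. Of the 3867 tested tiles next to a member, 18 (0.465%) were members, against 0.390% of all tested tiles. These 18 formed 9 runs that were all 2 tiles long. Within 10 tiles, 161 members (4.64%) had another member. For tiles separated upward the share with another such tile was 6.37%. The share to be met without clustering was not computed.

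In the tiles next to members the difference between the groups was small and its sign depended on the weighting. These were 3849 tested tiles, from which the 18 adjacent members were left out, while tiles separated upward stayed in. Their mean methylation was 70.9%, 70.7% and 70.9% in iron-sufficient replicates 1 to 3 and 70.9%, 71.7% and 71.5% in iron-deficient replicates 1 to 3. The iron-deficient group was thus 0.516 points higher, with means of 71.3% ± 0.432 against 70.8% ± 0.151 (SD, n = 3). A two-sided exact permutation test gave p = 0.3, where the smallest possible p is 0.1. Weighted by reads, the difference of the neighbours was −0.0834 points (p = 0.9, exact permutation test). With the adjacent members included, a setting chosen after the values were seen, the unweighted difference was 0.389 points (p = 0.3, exact permutation test). Over all tested tiles the iron-deficient mean was 0.835 points higher, and over those that were not members 0.941 points, each with p = 0.1 in the same exact permutation test. Relative to the latter, the difference of the neighbours was −0.425 points (p = 0.1, exact permutation test). Groups did not overlap downward in 149 neighbours (3.87%), against 3.71% of the tested tiles that were not members. The plot of distance from the separated tile shows a drop at that tile only. The rule selected this drop, and adjacent members were left out of the tiles beside it, so its width is partly set by the selection.

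**Figure D4:**
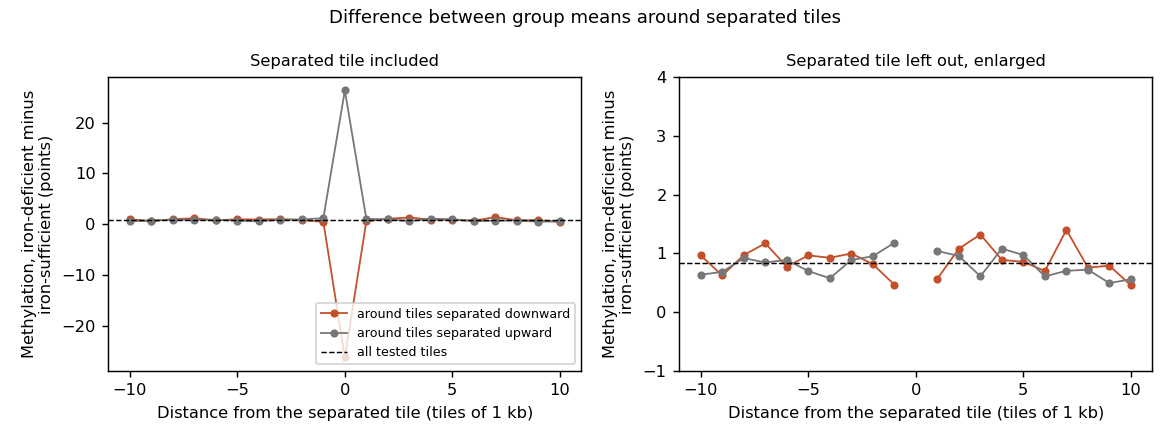
Difference between the group means of methylation (iron-deficient minus iron-sufficient, percentage points) in tested tiles up to 10 tiles from the separated ones, with the separated tile included on the left and left out on the right. Red is around tiles separated downward, grey around tiles separated upward, and the dashed line is all tested tiles at 0.835 points. The difference is −26.2 points at the member itself, which the rule selected, and between 0.453 and 1.4 points at every other distance from members. Adjacent members are not among the tiles at a distance of 1 from members.

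Depth in the members was similar in the 2 groups. Reads per CpG in the members were 0.828, 0.895 and 0.831 times those of all tested tiles in iron-sufficient replicates 1 to 3. They were 0.847, 0.862 and 0.847 times in iron-deficient replicates 1 to 3. The difference on the log2 scale was 0.00 (0.00238) and the two-sided exact permutation test gave p = 1. Of the CpGs that any sample listed in the members, a sample listed 89.3% ± 8.92 in the iron-sufficient group and 91.9% ± 4.54 in the iron-deficient group (SD, n = 3), with p = 0.7 in the same exact permutation test.

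Within the members, single CpGs moved unevenly. Of their 26926 CpGs covered in all samples, 73.1% had a lower iron-deficient group mean, 58.1% were lower by at least 10 points and 9.79% were higher by at least 10 points. Over the CpGs of all tested tiles these shares were 42.7%, 23.5% and 25.4%. The rule chose the members by sums over these CpGs. The contrasts with all tested tiles in this paragraph therefore follow in part from the selection and are descriptions. Every CpG was lower in 466 members (13.4%), while 1740 members (50.1%) held at least 1 CpG that was higher by 10 points. The groups did not overlap downward at 3511 CpGs (13%, against 2.2% over all tested tiles), and 1292 members (37.2%) held no such CpG. In these members the separation appeared only in the sum over CpGs. Among the 9463 CpGs covered by 10 or more reads in all 6 samples, 26.2% had a sample at 90% or above and another at 10% or below, compared with 13.9% over all tested tiles. Such a split followed the diets, with all iron-sufficient samples at 90% or above and all iron-deficient samples at 10% or below, at 6 of these CpGs (0.0634%). Over all tested tiles it followed the diets at 63 CpGs (0.00161%) and ran the opposite way at 86 (0.00219%).

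The tile chr8:125128001-125129000, which holds a window that the study displayed for Mobp, was a member. Mobp encodes a structural protein of central nervous system myelin made by oligodendrocytes. Methylation was 86.9%, 84.9% and 95.2% in iron-sufficient replicates 1 to 3 and 53%, 34% and 64% in iron-deficient replicates 1 to 3, a gap of 20.9 points. All 6 of its CpGs had a lower iron-deficient mean, and the groups did not overlap at 4 of them, within 89 nucleotides. Iron-deficient replicate 1 had only 100 reads over the tile. The study chose this window on the same samples, so its direction is not independent evidence. Both tiles of the window the study showed upstream of Pck1, the cytosolic enzyme that commits carbon to gluconeogenesis, overlapped between the groups and were no members. The first, chr3:163998001-163999000, had 75.7%, 77.4% and 82.9% against 78.9%, 76.3% and 61.6%. In the second, chr3:163999001-164000000, iron-sufficient replicate 3 was at 21.2% and iron-deficient replicate 2 at 5.52%, far below the other samples of their groups. The study called its regions from runs of single CpGs, while these tile values average 17 and 13 CpGs. Single CpGs of this window were not examined here, so the tile values do not test the study's call.

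The member with the widest gap, 48.2 points, was chr3:113343001-113344000. Methylation was 95%, 85.8% and 83.3% in iron-sufficient replicates 1 to 3 and 21.1%, 35.1% and 30.1% in iron-deficient replicates 1 to 3. It held 5 CpGs, the fewest allowed. The groups did not overlap at 3 of them, and 1 of these rested on a single read in iron-deficient replicate 2. The 10 widest gaps ran from 34.2 to 48.2 points, and 7 of these members held 5 CpGs. One in which the replicates lay within 10 points in each group was chr18:26337001-26338000, at 69.5%, 65.3% and 74.3% against 26.2%, 25.1% and 30.4%, with 9 CpGs.

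The adjacent pair chr18:77270001-77271000 and chr18:77271001-77272000 had gaps of 32.8 and 24.4 points. It lay 11.2 and 12.2 kb from the placed start of Kcng2, a modulatory subunit of voltage-gated potassium channels. Methylation of the first tile was 94.2%, 99.1% and 92.4% against 59.7%, 45.4% and 51%, and that of the second was 100%, 97.3% and 97.7% against 68.6%, 72.9% and 71.6%. In the first tile the difference lay at 2 of 8 CpGs. At chr18:77270923 the iron-sufficient samples were at 100%, 100% and 72.2%, and at chr18:77270940 at 98.1%, 100% and 96.8%, while all 3 iron-deficient samples were at 0% at both. The CpGs on either side stayed at 70.3% or above in all samples. The iron-deficient samples had 120 to 279 reads at the first of these CpGs and the iron-sufficient samples 38 to 79. The role of this difference in depth was not tested. In the 4 other adjacent pairs examined the gaps ran from 11.4 to 24.8 points.

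**Figure D5:**
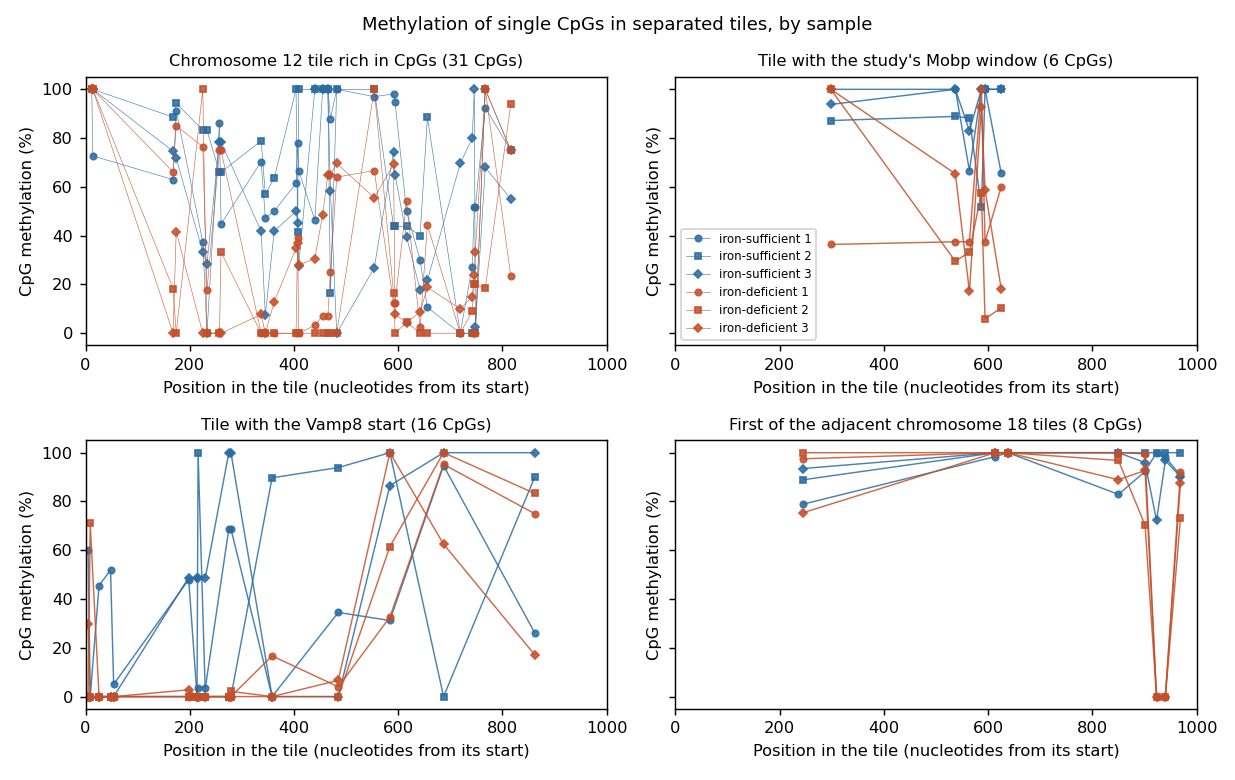
Methylation (%) of single CpGs along 4 members, by position in the tile (nucleotides from its start), with 1 line for each sample. Blue is iron-sufficient and red is iron-deficient. The groups do not overlap at 10 of 31 CpGs in the chromosome 12 tile, at 4 of 6 in the Mobp tile and at 2 neighbouring CpGs in the chromosome 18 tile, and in the Vamp8 tile the iron-sufficient samples differ among themselves.

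Among members with many CpGs, chr12:41457001-41458000 held 31, of which 28 had a lower iron-deficient mean and 10 did not overlap, within 306 nucleotides. At 6 of these 10 at least 1 sample had only 2 to 8 reads. Methylation was 62.7%, 72.9% and 54.6% against 28.5%, 30.9% and 33.5%. The member chr4:164165001-164166000, with 28 CpGs, had the smallest difference of the 5 richest in CpGs, at 48.2%, 51.5% and 48.1% against 35%, 36% and 35.4%. Its replicates lay within 4 points in each group. The member chr4:133359001-133360000, with 26 CpGs and at least 698 reads in each sample, had 38.4%, 39.3% and 40.1% against 10.2%, 25.9% and 27.2%. Another with 26 CpGs, chr4:116151001-116152000, had a wider spread in both groups, at 88.7%, 56% and 72.6% against 22.8%, 31.5% and 43.5%. High coverage and many CpGs were therefore found with narrow and with wide spread between replicates.

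Tiles separated in either direction were rare at the transcription starts that could be placed. Of 12292 tested tiles that held a placed start, 13 (0.106%) were members, and 71.6% of these tiles had a mean methylation under 20%, a class in which the rule could rarely be met. Upward, 26 (0.212%) of these tiles separated, against 0.581% of all tested tiles. Within 2 kb of a placed start lay 3.51% of the members, 3.63% of the tiles separated upward and 4.95% of all tested tiles. Within 50 kb the shares were 43.4%, 42.1% and 45.3%. Starts were placed for 13660 genes, so a nearer start of another gene can be missed. Only promoters with 6 or more CG could be placed, which 56.3% of the RefSeq promoters held. The shares therefore do not cover starts with fewer CG. The 13 members held the starts of 14 genes, the 4 protein-coding genes above and 10 long non-coding RNAs.

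In the Vamp8 tile methylation was 39.8%, 63.5% and 41.7% in iron-sufficient replicates 1 to 3 and 24.3%, 15.5% and 7.71% in iron-deficient replicates 1 to 3. Over the 8 CpGs of the printed promoter covered in all samples it was 24.6%, 76.4% and 48.3% against 1.31%, 0.346% and 1.4%. The promoter was thus almost unmethylated in all 3 iron-deficient samples and variable in the iron-sufficient ones. The value of 76.4% in iron-sufficient replicate 2 rested on 123 reads, of which 29 and 66 lay at only 2 CpGs. The promoter of LOC134486592, a long non-coding RNA that starts in the same tile, overlapped between the groups over 11 CpGs, at 24.4%, 0% and 0% against 0%, 7.55% and 7.82%. It begins upstream of the tile, as the start lies at chr4:105697131. At 1 of the 16 CpGs of the tile the groups did not overlap. Iron-sufficient replicate 2 had 192 reads over the whole tile, and 6 or fewer at 12 of the CpGs.

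The Tmem150a tile, on the same chromosome, had 69.6%, 27.9% and 73.9% against 14.9%, 13% and 8.7%. Its printed promoter was at or under 0.816% in all 6 samples, so the difference lay at the CpGs of the tile beyond the promoter. The start lies at chr4:105661174, so this promoter begins upstream of the tile. Its value, over 8 CpGs covered in all samples, thus includes CpGs outside the tile, which held 5. The A4galt tile had 68.5%, 73% and 85.3% against 53.4%, 50.6% and 49.2%, and its promoter 73.3%, 79.2% and 85% against 60.5%, 52.1% and 50.4%. In the Defb36 tile the values were 55.5%, 58% and 54.6% against 30.1%, 41.6% and 32%. At none of its 19 CpGs did the groups separate downward, and at 1 they separated upward. At the first 4 CpGs, where methylation was mostly low, iron-deficient replicate 1 had 143 to 176 reads and iron-sufficient replicate 1 had 4 to 18. The Defb36 promoter overlapped between the groups, at 64.4%, 84.6% and 61.9% against 50.3%, 72.8% and 55.5%. Of the 4 printed promoters, those of Vamp8 and A4galt kept the groups apart in the value summed over the promoter alone, though not at most single CpGs.

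Near starts, 122 members (3.51%) lay within 2 kb of any placed start, against 4.95% of all tested tiles. Of these members, 93 lay nearest the start of a named protein-coding gene, for which the share of all tested tiles was not counted. The 10 of them with the widest gaps are described next, with 5 to 14 CpGs and 52 to 250 reads in the shallowest sample. They were named after their values were seen. The tile near Nppc, which encodes C-type natriuretic peptide, had 96.5%, 100% and 100% against 71.7%, 65.8% and 62.7%. The tile near Gpr161, a receptor of the primary cilium that represses Hedgehog signalling, had 45.1%, 66.4% and 63.3% against 18.5%, 6.38% and 22.8%. The tile near Nlrp3, the sensor of an inflammasome, had 97.1%, 84% and 81.7% against 54.8%, 58.7% and 45.2%. The closest samples of the 2 groups lay more than 20 points apart in all of these, which follows from choosing the widest gaps.

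The tile near Ndufab1, the mitochondrial acyl carrier protein that also serves iron-sulfur cluster assembly, had 51.8%, 63.4% and 80.1% against 15.6%, 22% and 30.4%. The tile near Nrbf2, a component of the autophagy lipid kinase complex, had 65.8%, 79.5% and 67% against 40.9%, 29.3% and 37.2%, and lay 184 nucleotides from the start. The tile near Ttyh1, a membrane protein of neural cells, had 44.1%, 52% and 65.2% against 8.8%, 13.9% and 22.7%, with 14 CpGs, the most of these 10. The tile near Wdr59, a subunit of a complex that controls mTORC1, had 89.1%, 88.5% and 90.1% against 49.2%, 67.7% and 67.7%. The remaining 3 lay near Tmem200c, Entrep3 and Lenep and had gaps of 28.7, 26.2 and 20.9 points. Expression of these genes was not analysed here.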

How the data were processed

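WGBS was performed on 3 iron-sufficient and 3 iron-deficient hippocampi, grouped by their labels. Sequencing was paired-end or single-read, and the paper does not say which for each sample. After adapter trimming, the authors mapped to rn4 by BS Seeker, took read 1 where mates overlapped and merged both strands of a CpG. For each CpG the deposited files give a methylated fraction and a read count (coverage), per sample and without normalization. No source used here says whether duplicate reads were removed. Methylated reads were obtained by multiplying these, which gave whole reads to within 0.01 throughout.

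Tiles were built in Python 3.11.15 with numpy 2.4.6 and pandas 2.3.3, and the count of members and the single values were compared by exact permutation over the samples. The rule, the lists and the regions were chosen with earlier results of these data known. Named tiles were the 10 widest gaps, the 5 with most CpGs, the 5 with most reads in the shallowest sample, 5 runs of adjacent members (longest first, ties by summed gap), the 3 nearest the threshold on either side and the study's Mobp and Pck1 windows. A tile that these rules also chose is not reported here.

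No rn4 annotation was used. RefSeq promoters (GRCr8) with 6 or more CG were placed where the spacing of their CG matched the listed CpGs, once in the genome and on the chromosome RefSeq gives. Of 33469 promoters, 15666 were placed, and 71 that matched another chromosome were left out. This step and the genes named from it were added after the values were seen. The tile and promoter steps were tested on simulated data. Alternatives varied the tile, the weighting, the filters, the margin and the samples.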

Additional observations from a re-analysis of the deposited data

How the results depend on the processing

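The order of the counts did not turn under any alternative run with all 6 samples. More tiles separated upward than downward in each. The one-sided exact permutation p of the downward count stayed between 0.5 and 1 where it was computed, which was not done for the replicate block described below. The count of 3471 members moved to 2051 with 100 reads, 507 with 200 reads, 722 with 10 CpGs, 2082 and 949 with CpGs of at least 5 and 10 reads in all samples, and 2183 in tiles of 2000 nucleotides. Margins of 5, 20 and 30 points gave 11139, 303 and 23, and 10 CpGs with 200 reads, added after the data were seen, gave 412. Fewer tiles or a wider margin are part of these settings, and any other cause was not tested. With the samples shifted to the same median, 4207 tiles separated downward and 4286 upward (exact permutation p = 0.5). Leaving out 1 sample gave 9278 to 14452, as a rule over 5 samples is easier to meet. The mean methylation of neighbours differed by 0.954 and 0.913 points at 2 and 5 tiles away, by −0.0834 weighted by reads and by −0.319 relative to all tiles. Relative to the tiles that were not members, an alternative added after the data were seen, it was −0.425. The cause was not tested. Without 1 sample it was 0.358 to 0.762, the depth difference −0.0173 to 0.0386 and that of listed CpGs −2.15 to 6.72.

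Deviations of same-numbered samples correlated at 0.00209 to 0.00475, and those of differently numbered samples at −0.00397 to 0.000713. The replicate numbers thus showed no strong pairing over the tested tiles. A shared litter or batch was not tested. With a replicate block, in which every same-numbered pair had to be lower by 10 points, 11755 tiles met the rule and 16462 met it upward. With the block, an exact sign-flip test gave p = 1 for depth (0.00238), p = 0.5 for neighbours (0.516) and p = 0.5 for listed CpGs (2.57). The smallest possible p is 0.25 in that test and 0.1 in the two-sided permutation test. No call at 0.05 was therefore possible with or without the block.

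The shallowest sample of a member had a median of 111 reads. Membership of single tiles changed with the weighting, the borders and the minimum reads per CpG, as given above.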
